A study of Rattus norvegicus with 4 samples.

Results

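Neurotrophins are secreted growth factors that sustain neurons and strengthen synapses. BDNF (Bdnf) and neurotrophin 4 (Ntf4) bind the receptor tyrosine kinase TrkB (Ntrk2), neurotrophin 3 (Ntf3) binds TrkC (Ntrk3), and all of them also bind the p75 neurotrophin receptor (Ngfr), which together with sortilin (Sort1) receives the uncleaved pro-forms. In the adult hippocampus excitatory neurons are among the cells that make Bdnf and Ntrk2. The transcription of Bdnf follows neuronal activity, which is why this family is measured in studies of exercise. The genes described here were these 7, chosen as the ligands and receptors of the family and not by their values. On the array, 6 of the 7 were matched by accession to 8 probes on 35 spots of each chip, among 8898 named genes on 10767 probes, and Sort1 matched no probe.

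The RNA came from whole hippocampi of male Wistar rats that were 10 weeks old at the start and were kept for 4 weeks in standard cages (sedentary, 10 rats), with a running wheel without load (WR, 8 rats) or with a wheel whose resistance was raised to 30% of body weight (RWR, 8 rats). RNA was pooled within each group in equal masses per replicate, and by the masses that the methods state a pool held fewer replicates than its group had rats. Each pool was hybridized against the sedentary pool in 2 colours on a rat whole-genome oligo array, on chips 1 and 2 for WR and chips 3 and 4 for RWR. The labelling was reversed within each pair: the running pool was in Cy5 on chips 1 and 3 and in Cy3 on chips 2 and 4. With 1 biological replicate a group, paired chips repeat the measurement of the same RNA, so no test between conditions was made and every difference below is a description of these pools. In pooled tissue, fewer cells of a type cannot be told apart from less RNA per cell. Both comparisons use sedentary RNA as their reference, so their values are given side by side and not as independent. The labels do not say whether chips 1 and 2 and chips 3 and 4 held the same sedentary pool.

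Values are log2 ratios of running over sedentary, and signals are the scanner's processed intensities in arbitrary units, comparable between pools for 1 probe but not between probes. A probe was called when it passed 1.5-fold up or 0.75-fold down on both chips with the scanner's p-value under 0.01 on both. It was counted as well above background in a dye when at least 50% of its spots carried that flag. Between 67.5% and 82.5% of the 43379 noncontrol spots were well above background per chip and dye, and 24955 of 41003 probes had the flag in every dye of all 4 chips. Over all probes, the ratios of the chips of a pair, turned to running over sedentary by the labelled dyes, correlated at r = -0.76 for WR and r = -0.69 for RWR. The Cy5 over Cy3 ratio averaged over a pair, called the dye effect of a probe here, correlated between both pairs at r = 0.82. These correlations run across probes of the same slide and show how much of a single chip's ratio came with the dye. Of 8 hippocampal excitatory neuron markers, 6 had a probe and all 6 were well above background. Actb, the endogenous control of the study, was read by 2 probes. Their mean log2 ratios were 0.12 and 0.09 for WR and 0.00 and -0.03 for RWR. Both probes were above 0 only on the chips with the running pool in Cy5. On the WR chips the brighter probe read 0.26 and -0.02.

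None of the neurotrophin or receptor genes was called in WR or RWR. The call rule passed 0.0317% of all probes for WR and 0.0585% for RWR, so 0 of 8 probes does not set the family apart. The 6 probes well above background on all chips, which covered Bdnf, Ntf3, Ntrk2 and Ntrk3, reached at most 1.11-fold in WR and 1.1-fold in RWR. The scanner's p-values for these 6, which describe a single chip's measurement and not the rats, lay between 0.168 and 0.945 on the WR chips and between 0.162 and 0.947 on the RWR chips. Ntf4 and, in part, Ngfr lay at the limit of detection.

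**Figure D1:**
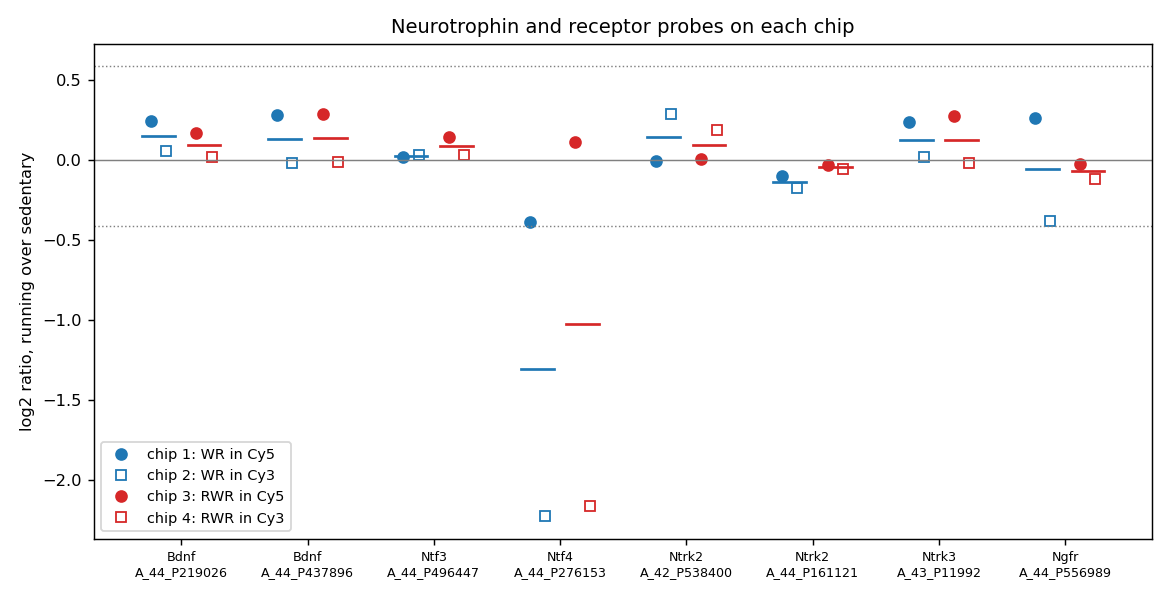
Log2 ratio of running over sedentary (vertical axis) at the 8 probes of the family, with WR in blue and RWR in red, filled circles for chips with the running pool in Cy5 and open squares for chips with it in Cy3. Short bars are the means of a pair, dotted lines mark 1.5-fold and 0.75-fold, and only the Ntf4 probe, which failed the background flag in both running pools, has means beyond them.

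Bdnf encodes the ligand of TrkB that neurons release with activity, and it was read by 2 probes. The probe A_44_P219026 gave processed signals of 691 (WR) against 584 (sedentary) on chip 1 and 563 against 541 on chip 2. Its signals were 649 (RWR) against 578 on chip 3 and 522 against 515 on chip 4. The running pool was the brighter of the pair on all 4 chips, by more where it was labelled with Cy5. This gave log2 ratios of 0.24 and 0.06 in WR, with a mean of 0.15 (1.11-fold), and 0.17 and 0.02 in RWR, with a mean of 0.09 (1.07-fold). Among probes well above background on all chips, 5.88% had a higher mean ratio in WR and 15% in RWR.

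The other Bdnf probe, A_44_P437896, was printed at 10 spots on each chip, which shows the scatter of a single measurement. On chip 1 its mean signals were 489 for WR and 403 for sedentary, and on chip 3 they were 519 for RWR and 424 for sedentary. With the dyes swapped, the signals were 403 against 408 on chip 2 and 394 against 397 on chip 4. All 10 spots were above 0 on chips 1 and 3, but only 4 of 10 on chips 2 and 4. The log2 ratios were 0.28 ± 0.04 (SD of 10 spots) and -0.02 ± 0.03 in WR, and 0.29 ± 0.02 and -0.01 ± 0.03 in RWR. The difference between the dye orientations was thus many times the scatter between spots, and its size was nearly equal in both pairs, with a dye effect of 0.15 in each. The means of the pairs were 0.13 for WR and 0.14 for RWR, 1.1-fold in each. Both Bdnf probes therefore had means above 0 in both comparisons, of a size between 0.09 and 0.15.

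**Figure D2:**
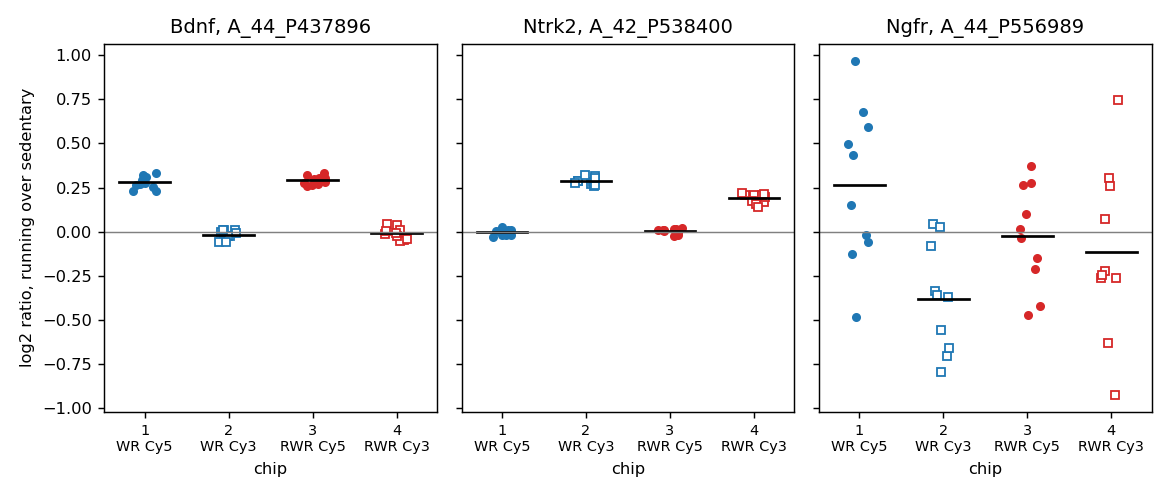
Log2 ratio of running over sedentary at each of the 10 spots of the repeated probes of Bdnf, Ntrk2 and Ngfr on the 4 chips (horizontal axis, with the dye of the running pool), and black bars at the mean of the spots. The spots of Bdnf and Ntrk2 lay close together on a chip and moved with the dye, whereas those of the dim Ngfr probe spread from -0.92 to 0.97.

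The RefSeq promoter table of the GRCr8 assembly holds 6 start sites of Bdnf, whose transcripts begin at alternative first exons. Since activity-dependent transcription of Bdnf runs through CREB, which binds the cAMP response element (CRE), the windows from 250 bases before to 50 bases after each start were searched on both strands for the full element TGACGTCA and its core TGACG, which the full element contains. The full element was in 0 of 11 promoters listed for Bdnf, Ntf3, Ntf4 and Sort1, against 1.83% of all 33469 promoters. At that share, 0 of 11 does not set these promoters apart. No promoter of Ntrk2, Ntrk3 or Ngfr was searched, and 6 of the 11 were those of Bdnf. The core was in 1 of the 11, against 21.2% of all promoters. That promoter belongs to Bdnf, and the stretch around the match, which begins 35 bases before the start site, is shown to give the element its context (chr3:116637795-116637855, plus strand, GRCr8, with the core as read on the other strand in capitals).
Bdnf: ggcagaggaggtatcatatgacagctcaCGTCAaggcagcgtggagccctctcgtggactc
A match of letters is not a binding site, and which of the alternative Bdnf transcripts each probe reads is not given in the sources used here.

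Ntf3 encodes the ligand of TrkC, which in the adult hippocampus is made mainly in the dentate gyrus. Its probe A_44_P496447 gave signals of 261 (WR) against 258 (sedentary) on chip 1 and 237 against 232 on chip 2, which were nearly equal. On chip 3 it gave 283 (RWR) against 256 and on chip 4 249 against 244. Its log2 ratios were 0.02 and 0.03 in WR (mean 0.02) and 0.15 and 0.03 in RWR (mean 0.09), all above 0. Higher mean ratios than that of Ntf3 were found at 38.3% of probes well above background in WR and at 16.2% in RWR.

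Ntf4, the second ligand of TrkB, was close to the background. In the running pools its probe failed the background flag on all 4 chips, and in the sedentary pool it passed on chips 2 and 4 alone, where that pool was in Cy5. The signals of its single spot were 9.75 (WR) against 12.8 (sedentary) on chip 1 and 3.61 against 16.9 on chip 2. On chips 3 and 4 they were 15.1 (RWR) against 14.0 and 4.27 against 19.1. The lower signal was in Cy3 on each chip except chip 1, and the deposited log2 ratios of -0.39 and -2.23 in WR and 0.11 and -2.16 in RWR did not keep a common size or sign. After the dyes had been scaled to each other, the sedentary mean lay under the lowest signal that passed the background flag in the running dyes, so no fold is given.

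Ntrk2 encodes TrkB and is transcribed both into the full-length kinase and into truncated receptors that astrocytes carry. Its 2 probes were matched to the same transcript accession. At A_42_P538400, with 10 spots, the mean signals were 8662 (WR) against 8680 (sedentary) on chip 1 and 8813 against 7223 on chip 2. For RWR they were 9489 against 9462 on chip 3 and 8551 against 7499 on chip 4. Here the running pool was brighter on the chips where it carried Cy3 and equal within the spot scatter where it carried Cy5, the reverse of the Bdnf probes. The log2 ratios were -0.00 ± 0.02 and 0.29 ± 0.02 in WR (mean 0.14) and 0.00 ± 0.02 and 0.19 ± 0.03 in RWR (mean 0.10; SD of 10 spots).

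The single-spot Ntrk2 probe A_44_P161121 went the other way. Its signals were 779 (WR) against 833 (sedentary) and 677 against 763 on chips 1 and 2, and 851 (RWR) against 871 and 723 against 753 on chips 3 and 4. The running pool was the dimmer on all 4 chips, by little on the RWR chips. In log2 ratios this was -0.10 and -0.17 in WR (mean -0.14) and -0.03 and -0.06 in RWR (mean -0.05). Mean ratios above this one were found at 93.8% of probes well above background in WR and at 72.3% in RWR. The sign for Ntrk2 thus depended on the probe, and no direction is given for the gene.

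Ntrk3, which encodes TrkC, was read by the single-spot probe A_43_P11992. The signals were 8326 (WR) against 7075 (sedentary) on chip 1 and 6634 against 6555 on chip 2, and 8870 (RWR) against 7335 on chip 3 and 6714 against 6809 on chip 4. As for Bdnf, the running pool was clearly the brighter on the Cy5 chips alone. Log2 ratios were 0.23 and 0.02 in WR and 0.27 and -0.02 in RWR, and both means were 0.13 (1.09-fold). Of the probes well above background, 8.42% had a higher mean ratio in WR and 9.08% in RWR.

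Ngfr encodes the p75 receptor, which in the adult forebrain is carried mainly by cholinergic neurons of the basal forebrain that project into the hippocampus. Its probe, with 10 spots, gave mean signals of 25.1 (WR) against 21.5 (sedentary) and 19.2 against 24.5 on chips 1 and 2, and 26.6 (RWR) against 27.1 and 25.6 against 26.8 on chips 3 and 4. Fewer than 5 of the 10 spots were well above background for the sedentary pool on chip 1 (3 spots) and for the WR pool on chip 2 (4 spots), so the probe counted as measured in both pools for RWR alone. The log2 ratios were 0.26 ± 0.44 and -0.38 ± 0.30 in WR and -0.03 ± 0.29 and -0.12 ± 0.48 in RWR (SD of 10 spots). The spots of chips 1, 3 and 4 lay on both sides of 0 with an SD above the size of the ratio, and the means of the pairs, -0.06 and -0.07, were smaller than that scatter. The RWR mean changed sign, to 0.03 with normexp background correction and to 0.02 with none. Of 5 markers of basal forebrain cholinergic neurons, 4 had a probe and 2, the choline transporter Slc5a7 and the vesicular transporter Slc18a3, were well above background, while Lhx8 and Isl1 were not. Slc5a7 had mean log2 ratios of -0.25 in WR and -0.06 in RWR and Slc18a3 of -0.03 and -0.01. The summed signal of the 4 markers was 349 (WR) against 390 (sedentary) on chip 1 and 309 against 352 on chip 2. It was 404 (RWR) against 420 on chip 3 and 365 against 369 on chip 4. The part of this sum in the Ngfr values was not tested.

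**Figure D3:**
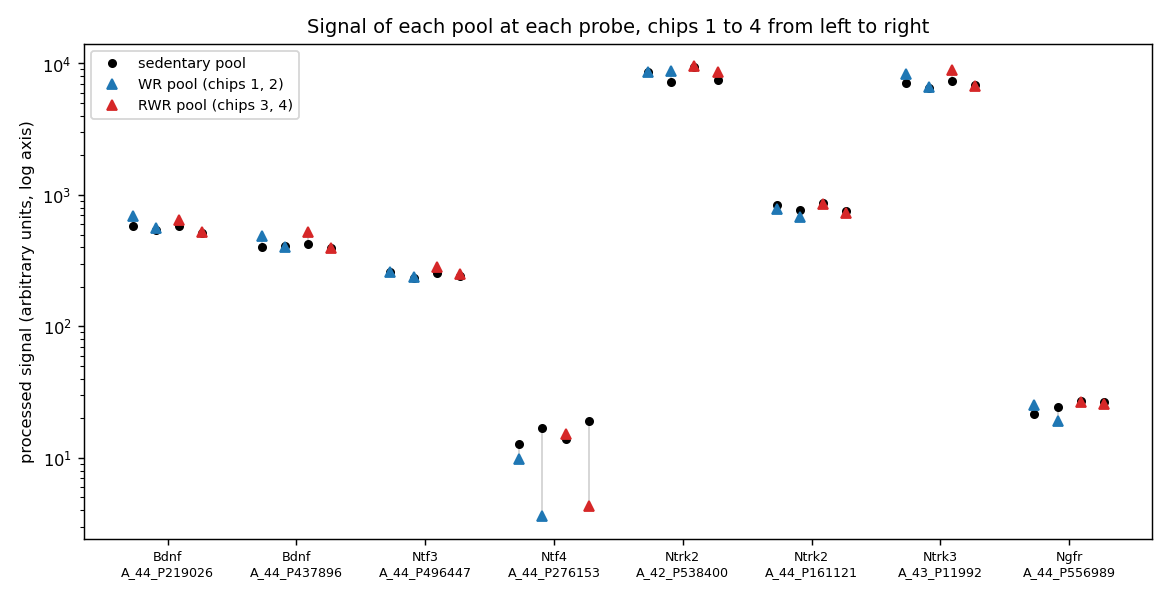
Processed signal (arbitrary units, log axis) of the sedentary pool (black circles) and of the WR and RWR pools (blue and red triangles) at each probe of the family, with chips 1 to 4 from left to right. Levels compare pools at 1 probe, not probes with each other; Bdnf, Ntf3, Ntrk2 and Ntrk3 lay at 232 or above in every pool and Ngfr and Ntf4 at 27.1 or below.

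Counted over the 8 probes, 3 were above 0 on both chips in WR, 2 were below and 3 had opposite signs, and the same counts held for RWR, although not at the same probes. Of all probes, 11.6% were above 0 on both chips in WR and 12.4% in RWR, and 10.7% and 14.8% were below. Among the 6 probes well above background, 3 were above and 1 below in each comparison, against 14.5% above and 13.9% below for WR and 16.7% and 16.2% for RWR over all such probes. Those above 0 on both chips were Bdnf A_44_P219026, Ntf3 and Ntrk3 in WR and Bdnf A_44_P219026, Ntf3 and Ntrk2 A_42_P538400 in RWR. The probe below 0 on both chips was Ntrk2 A_44_P161121 in each comparison. With 6 probes on 4 genes, and with 2 probes each for Bdnf and Ntrk2, these counts describe the family and test nothing.

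Because each probe kept much of its dye effect from one pair of chips to the other, the ratio of each chip was also computed after the dye effect measured in the other pair had been subtracted, which leaves the mean of the pair as it was. For Bdnf A_44_P437896 the chips then read 0.13 and 0.13 in WR and 0.14 and 0.14 in RWR. For Bdnf A_44_P219026 they read 0.17 and 0.13 in WR and 0.08 and 0.11 in RWR. Both Bdnf probes thus stood above 0 on all chips after the subtraction. Where the dye effects of both pairs are nearly equal, each chip must then read close to the mean of its pair. A shared sign after the subtraction therefore restates that mean and is no further agreement between the chips. Ntrk3 read 0.09 and 0.16 in WR and 0.17 and 0.09 in RWR. Ntrk2 A_42_P538400 read 0.09 and 0.19 in WR and 0.15 and 0.04 in RWR, while its other probe stayed below 0 with -0.11 and -0.16 and with -0.07 and -0.02. Ntf3 read -0.04 and 0.09 in WR and 0.15 and 0.03 in RWR. Of the 6 probes, 4 were then above 0 on both chips in WR and 5 in RWR, against 25.8% and 26.7% of all probes well above background, and 1 was below in each, against 24.2% and 25.9%. The subtraction uses the chips of both pairs, so the remaining gap between the chips is by construction equal in WR and RWR and the counts of both comparisons are not independent.

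**Figure D4:**
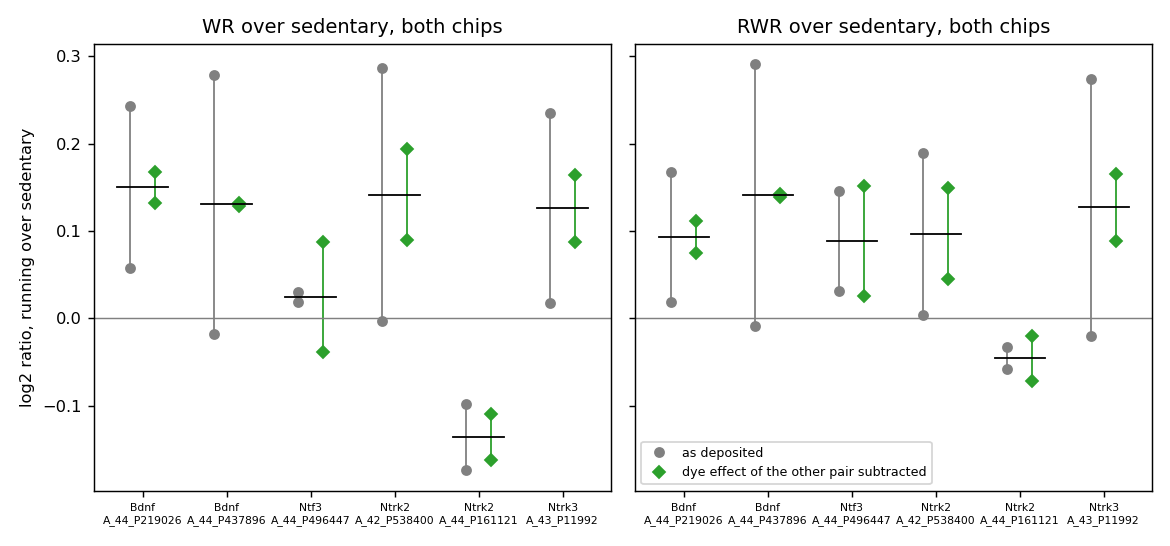
Log2 ratio of running over sedentary on both chips of a pair at the 6 probes well above background on all chips, as deposited (grey circles) and after subtraction of the dye effect of the other pair (green diamonds), with WR on the left and RWR on the right. Black bars mark the mean of the pair, which the subtraction does not move. The chips of both Bdnf probes, Ntrk2 A_42_P538400 and Ntrk3 came closer together in both comparisons. Those of Ntf3 moved apart in both, by little in RWR, and those of Ntrk2 A_44_P161121 moved apart in RWR.

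These means lay within the bulk of the array. Over all probes well above background, the mean ratio had an SD of 0.10 in WR and 0.11 in RWR, and the 5th and 95th percentiles were -0.15 and 0.16 in WR and -0.16 and 0.17 in RWR. All 6 probes of Bdnf, Ntf3, Ntrk2 and Ntrk3 were inside these limits. The median over the brightest probe of each of the 6 genes was 0.08 in WR and 0.09 in RWR, beside 0.00 and -0.00 over all named genes. It counts Ntrk2 at its brighter probe, which had the higher ratios of the pair, and was 0.01 and 0.06 when each gene was given the median over its probes. On single chips it ran from 0.02 to 0.13 in WR and from -0.00 to 0.13 in RWR, so it depended on the dye orientation. It was 0.13 over the 4 genes well above background in WR and 0.09 over the 5 in RWR.

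RWR and WR were not hybridized against each other, and their difference could be taken only through the sedentary reference, between chips of the same dye orientation. If the sedentary pools of the pairs were not the same, these differences also hold the difference between those pools. The difference of RWR minus WR at Bdnf A_44_P219026 was -0.07 on the Cy5 chips and -0.04 on the Cy3 chips, and at Bdnf A_44_P437896 it was 0.01 on both. At Ntf3 it was 0.13 and 0.00, at Ntrk3 0.04 and -0.04, and at the Ntrk2 probes 0.01 and -0.10 (A_42_P538400) and 0.06 and 0.12 (A_44_P161121). The differences at both Bdnf probes thus lay between -0.07 and 0.01 on the log2 scale, and without replicate pools no error over rats can be put on them.

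Over the 4 chips, the named genes whose ratios were most like those of a member, by Euclidean distance among 7375 or 7376 probes well above background, were Enc1 (distance 0.03), Septin5 (0.04) and Sc5d (0.04) for Bdnf. They were Rgs8 (0.01), Slc4a8 (0.03) and Nufip1 (0.03) for Ntf3, and Lyn (0.05), Bphl (0.05) and Dusp6 (0.06) for Ntrk2. For Ntrk3 they were Ctsk (0.06), Bdnf through its probe A_44_P437896 (0.06) and Or1j19 (0.06). These distances hold the dye effect of each probe as well as the difference between pools.

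Among 15 genes that cleave or carry pro-neurotrophins or inhibit this, 13 had a probe and 8 were well above background in each comparison. None was called; 4 were above 0 and 1 below 0 on both chips in WR, and 1 was above and 2 below in RWR, with medians of 0.06 and 0.02. The brightest probes of named genes well above background were called in 0.0833% of cases in WR and 0.0475% in RWR, were above 0 on both chips in 14.7% and 15.8% and below 0 in 15.2% and 16.3%. Pcsk1, a convertase of the regulated secretory pathway, had log2 ratios of 0.13 and 0.11 in WR and 0.21 and 0.14 in RWR. Furin, which cleaves proBDNF in the Golgi network, had 0.10 and 0.18 in WR and -0.00 and 0.08 in RWR. The inhibitor neuroserpin, Serpini1, had -0.01 and -0.07 in WR and 0.02 and -0.01 in RWR. Plat, the tissue plasminogen activator, had -0.13 and 0.09 in WR and -0.20 and -0.03 in RWR. Cpe, the sorting receptor carboxypeptidase E, had 0.07 and 0.07 in WR and -0.06 and -0.03 in RWR.

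Of 28 adaptors and co-receptors of Trk and p75, 19 had a probe, of which 19 were well above background in WR and 18 in RWR, and none was called. In WR 5 were above and 2 below 0 on both chips, and in RWR 1 was above and none below, with medians of 0.01 in both. Frs3, an adaptor of Trk receptors, had 0.20 on each WR chip and -0.21 and 0.24 in RWR. Grb2, which links Trk to Ras, had 0.05 and 0.19 in WR and -0.11 and 0.10 in RWR. Crk, another adaptor, had -0.04 and -0.35 in WR and 0.08 and -0.66 in RWR. Bex1, a p75 interactor, had -0.05 and -0.01 in WR and 0.00 and -0.01 in RWR. Kidins220, a scaffold that Trk receptors phosphorylate, had 0.16 and -0.05 in WR and 0.19 and 0.01 in RWR.

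For kinases and factors downstream of Trk, 25 of 34 genes had a probe, 24 were well above background and none was called. The counts on both chips were 6 above and 2 below 0 in WR and 2 above and 6 below in RWR, with medians of 0.03 and -0.00. Akt2, a kinase of the PI3K branch, had 0.38 and 0.06 in WR and -0.11 and -0.23 in RWR. Camk4, a calcium-dependent kinase of CREB, had 0.02 and 0.29 in WR and -0.07 and 0.23 in RWR. Rps6ka1, which the MAPK branch activates, had -0.16 and -0.03 in WR and -0.13 and 0.02 in RWR. Pdpk1, which activates Akt, had 0.15 and 0.09 in WR and 0.21 and 0.11 in RWR. Pik3r1, the regulatory subunit of PI3K, had -0.28 and 0.08 in WR and -0.25 and -0.09 in RWR. Of 10 regulators of Bdnf transcription, 7 had a probe, with 4 in WR and 5 in RWR well above background, and none of them kept a sign on both chips.

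Genes that BDNF induces in neurons had medians of 0.08 in WR and 0.09 in RWR over 14 of 15 genes, all well above background. None was called. On both chips 5 were above and 1 below 0 in WR, and 6 above and none below in RWR. Nptx2, a secreted pentraxin that clusters AMPA receptors, had signals of 243 (WR) against 192 (sedentary) and 232 (RWR) against 197, as means of each pair. Its log2 ratios were 0.40 and 0.27 in WR and 0.23 and 0.24 in RWR. It was thus above 0 on all 4 chips and in both dye orientations, as were Vgf, Homer1, Inhba and Nrn1 of this list. The lowest single-chip ratios of these others were near 0, at 0.01 for Vgf and 0.02 for Homer1, Inhba and Nrn1. Nptx2 and Nrn1 had been picked for high ratios in these data. The share of all named genes above 0 on all 4 chips was not computed. Nrn1, which promotes neurite growth, had 0.02 and 0.23 in WR and 0.02 and 0.27 in RWR. Arc, an immediate early gene of synapses, had 0.23 and -0.03 in WR and 0.30 and 0.12 in RWR. Fos, an immediate early gene of neuronal activity, had -0.15 and -0.32 in WR and 0.11 and -0.22 in RWR. The hippocampi were taken in the morning after the exercise period had ended.

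**Figure D5:**
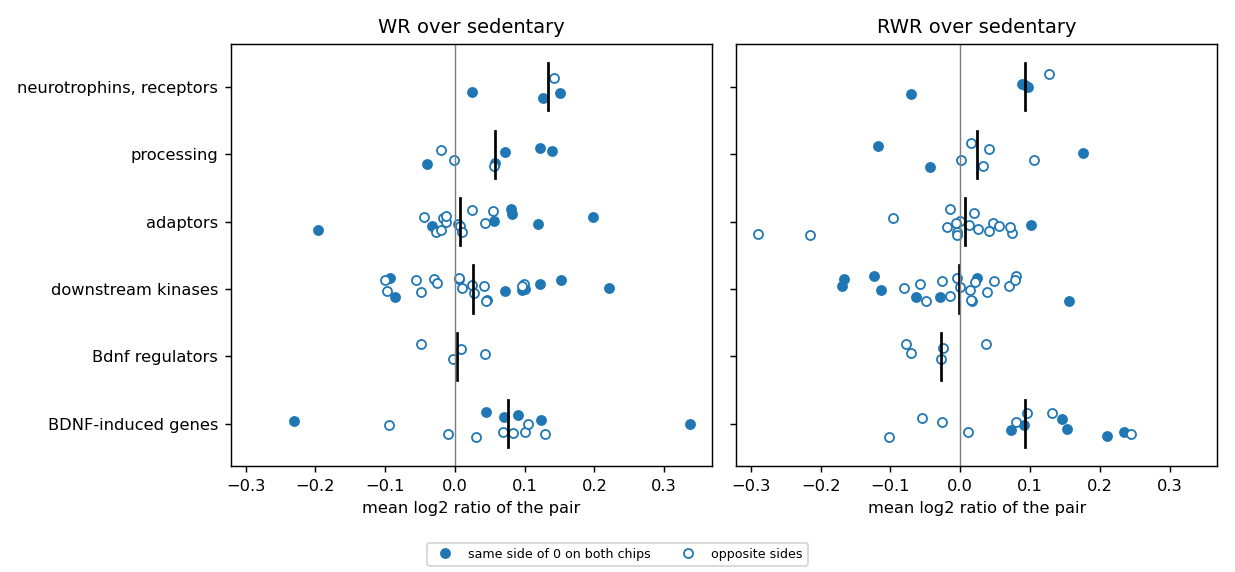
Mean log2 ratio of the pair (horizontal axis) for the genes of each list whose brightest probe had the background flag for both pools of the pair, with WR on the left and RWR on the right. Filled points were on the same side of 0 on both chips, open points on opposite sides, and black bars are medians; those of the family were 0.13 and 0.09 and those of BDNF-induced genes 0.08 and 0.09.

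Markers of cell types that a dissected hippocampus can hold were read beside these values. Oligodendrocyte markers had a median of -0.07 in WR and -0.08 in RWR, with 6 of 6 means below 0 in each. On both chips, 3 of 6 were below 0 in WR and 2 of 6 in RWR. The shares of named genes well above background were 15.2% and 16.3%. Their summed signals, running against sedentary, were 65242 against 69154 on chip 1 and 58812 against 61076 on chip 2. On chips 3 and 4 they were 69567 against 78138 and 57899 against 62960, lower in the running pool on each chip. Each sum is carried mainly by its brightest probes. Interneuron markers, of which Npy also stands in the list of BDNF-induced genes, had medians of 0.05 and 0.12. On both chips, 0 of 5 were above 0 in WR and 1 of 5 in RWR, beside 14.7% and 15.8% of named genes. With the running pool in Cy5, their summed signals were 33238 against 28571 on chip 1 and 36466 against 29361 on chip 3. With it in Cy3, they were 26312 against 28915 on chip 2 and 28171 against 28333 on chip 4. Astrocyte markers had medians of 0.00 and 0.01 and excitatory neuron markers of 0.03 and 0.02. Of 6 choroid plexus markers 5 had a probe; in WR the 3 well above background were below 0 on both chips, and Ttr was called with a mean of -0.86, against 0.12 in RWR. The summed signal of the 5 markers was 1903 (WR) against 2117 (sedentary) on chip 1 and 1742 against 2133 on chip 2. It was 2558 (RWR) against 2451 on chip 3 and 2234 against 2275 on chip 4. Kl was not well above background in either comparison. The part of these shifts in the values of the neurotrophins and receptors was not tested.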

How the data were processed

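Hippocampal RNA of each group (sedentary, WR, RWR) was pooled, labelled with Cy3 or Cy5 and hybridized to 4 chips of 1 slide with a dye swap in each pair. The authors processed the scans with Agilent Feature Extraction 11.0.1.1. The deposited files hold, for each spot, the processed intensity of each dye, background-subtracted and normalized by LOWESS, a log10 ratio (Cy5 over Cy3) and a p-value of the scanner's error model. The deposited series matrix holds log10 ratios of the same chips. Control spots and 118 to 140 outlier-flagged spots per chip were removed. All ratios were expressed as log2 of running over sedentary and averaged over the spots of each probe. Unversioned accessions were looked up in the GRCr8 RefSeq table, used for names and promoter sequences. The number of chips limits the precision, and 1 replicate a group allows no test.

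The genes and lists were chosen with earlier results of these data known. Named were all probes of the 7 genes and, per list and comparison, up to 2 genes with the highest and 2 with the lowest mean ratio among those well above background and on the same side of 0 on both chips, any called gene, the 3 most alike genes of each measured member, and Actb. Some genes that this rule names are not reported here. Marker lists covered excitatory neurons, interneurons, astrocytes, oligodendrocytes, microglia, choroid plexus, basal forebrain cholinergic neurons, anterior pituitary and blood. Alternatives were normexp background correction (offset 50) or none with loess in limma 3.58.1 under R 4.3.3, the series matrix, median centring, a filter on dim probes, subtraction of the dye effect, single chips, other cutoffs and all probes of a gene. The call was tested on simulated data. Python 3.11.15 with numpy 2.4.6, pandas 2.3.3 and matplotlib 3.10.9 was used.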

Additional observations from a re-analysis of the deposited data

Results flagged for a closer look

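Member probes and named genes of the pathway lists were checked at probes well above background. They were marked where both chips of WR lay on one side of 0 and both chips of RWR on the other. The named genes had been picked for high or low ratios in these data. The share of all probes that meet this rule was not computed. The rule held for Akt2 (A_43_P15267), with mean log2 ratios of 0.22 in WR and -0.17 in RWR, at signals from 50.1 to 73.8. It also held for Cpe (A_44_P204704), with 0.072 and -0.044. These differences were not tested, since each group was 1 pool.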

How the results depend on the processing

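No member was called under normexp or no background correction, with the series matrix values, median centring, the dye effect subtracted, a filter on dim probes, no p-value filter or cutoffs of equal size. The filter on dim probes and the cutoffs of equal size can only remove calls, so they could not raise this count. The series matrix holds the same ratios. Where the ratios were recomputed, the scanner's deposited p-values were kept, so these settings are not independent checks. With cutoffs on the mean of the pair, 1 gene was called in WR and 1 in RWR, and single chips called 0 to 1 in each; that gene was Ntf4, which the filter on dim probes removes. The count of probes above 0 on both chips, 3 in each comparison, became 4 in WR and 5 in RWR with the dye effect subtracted, 2 and 3 with normexp and 2 and 4 without background correction, and single chips gave 4 to 5 in WR and 3 to 6 in RWR, where a single chip needs to be above 0 once. The median over the genes, 0.08 in WR and 0.09 in RWR, was 0.01 and 0.06 over all probes of a gene and stayed above 0 under the other alternatives on pairs of chips. On single chips it ran from 0.02 to 0.13 in WR and from -0.00 to 0.13 in RWR. Of 93 values of single probes under alternatives other than single chips, 4 moved by more than the SD of the chips. These were 2 of 16 values with normexp and 2 of 16 without background correction. Of them, 2 changed sign, both at Ngfr in RWR, to 0.03 with normexp and 0.02 without background correction. Most of the 93 could hardly move. Dye subtraction leaves the mean of a pair, and so the median over the genes, as it was. The series matrix holds the same ratios, and the filter on dim probes changes no ratio. Of 32 single-chip values, 6 had another sign than the mean of the pair. No paired analysis was possible because the labels carry no replicate numbers that pair rats and each group was 1 pool.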

Other observations

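Microglia markers in the RWR pool did not move together. P2ry12, a receptor of resting microglia, had log2 ratios of 0.28 and 0.29 and C1qa, a complement component, 0.04 and 0.20, while Itgam, an integrin of microglia, had -0.07 and -0.49. Of 6 markers 3 were above and 2 below 0 on both chips in RWR, with a median of 0.06, and 2 were above and 1 below in WR, with a median of 0.04. Of anterior pituitary markers, Prl was called in RWR with a mean of -1.20, at a probe that was not well above background in both dyes, and the median of the list was 0.05 in RWR and -0.09 in WR over the 4 genes well above background. Blood markers, with 2 of 3 genes read, had medians of -0.02 in WR and 0.00 in RWR.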
